A study of Homo sapiens with 4 samples.

Results

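The 5 mature miRNAs described here are miR-23a (hsa-miR-23a-3p), miR-23b (hsa-miR-23b-3p), miR-27a (hsa-miR-27a-3p), miR-27b (hsa-miR-27b-3p) and miR-24 (hsa-miR-24-3p), 5 of the 939 miRNAs on a 1-colour Agilent human miRNA array. They were found by name in the scanner files and had been chosen by their signals on these same arrays, on which miR-23b and miR-27b were already known to be higher in migrating cells. For that reason every difference between the groups is given as a description and was not tested. The 4 arrays held RNA of HCT116, a colon cancer cell line with wild-type p53. 2 arrays were of MG cells, which had crossed a transwell membrane towards serum over repeated rounds of selection, and 2 were of non-MG cells, which had stayed on the upper side. Both subpopulations come from a single line and were grown in the same serum-containing medium after the selection. Nothing says that the 2 samples of a group came from separate cultures, so the spread between arrays may be technical. With 2 arrays against 2, an exact permutation test could not give a two-sided p under 0.333.

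The human genome holds the miR-23, miR-27 and miR-24 genes as a cluster on chromosome 9 and again, in slightly altered form, on chromosome 19. The members of a cluster are cut from a shared primary transcript, and each hairpin gives a mature strand of about the length of a small interfering RNA that guides Argonaute to complementary mRNAs, mainly through its seed at bases 2 to 8. Paralogs with the same seed are taken to share most of their targets, so a cell can supply the same seed from either chromosome. The miR-23, miR-27 and miR-24 families are known for roles in endothelial growth, lipid metabolism and cell differentiation.

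The mature sequences show what the array had to tell apart and are printed from RefSeq (GRCh38.p14) with the seed in capitals, 5′ to 3′.
miR-23a-3p, chr19:13836595-13836615, minus strand: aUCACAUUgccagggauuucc
miR-23b-3p, chr9:95085265-95085287, plus strand: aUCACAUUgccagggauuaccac
miR-27a-3p, chr19:13836447-13836467, minus strand: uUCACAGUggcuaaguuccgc
miR-27b-3p, chr9:95085505-95085525, plus strand: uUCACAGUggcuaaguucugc
miR-24-3p, chr9:95086064-95086085, plus strand, and chr19:13836289-13836310, minus strand: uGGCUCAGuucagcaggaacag
Counted from 1 at the 5′ end, miR-23b differed from miR-23a at a single base over the 21 shared positions, U19A, and was 2 bases longer at its 3′ end. miR-27b differed from miR-27a at a single base, C19U. The seed of miR-23 shared its first 5 bases with that of miR-27, and the seed of miR-24 was unlike both. miR-24 has the same mature sequence from both clusters, so its signal is the sum of both. In the RefSeq annotation the 3 chromosome 9 hairpins span 881 bp and lie inside AOPEP, the gene also named C9orf3, while the 3 chromosome 19 hairpins span 373 bp within MIR23AHG.

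Each of the 5 miRNAs had 2 probes of 8 spots, hence 16 spots per array. All 10 probes stood above 3 times their error on every array, the lowest at 5.62 times. Of the 80 spots of the 5 miRNAs, 80 and 77 were well above background on non-MG 1 and non-MG 2, and 80 and 79 on MG 1 and MG 2. None was saturated. The 4 arrays shared 1 slide, where slide row 1 held the non-MG arrays and slide row 2 the MG arrays. The group and the row of the slide therefore cannot be told apart. The epithelial miR-200 family and miR-141 were measured on all 4 arrays, while the intestinal miR-192, miR-194 and miR-215 were not detected on any. A miRNA's signal is the sum of its probe signals after background subtraction, brought to a common 75th percentile over the 116 miRNAs that every array detected.

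miR-23b, the chromosome 9 form of the miR-23 pair, had the largest difference between the groups of the 5. Its scaled signal was 50.5 and 45.9 on the non-MG arrays, against 121 and 113 on the MG arrays. Both MG arrays lay far above both non-MG arrays, at 2.43-fold, a log2 difference of 1.28 (SE 0.084, n = 2 and 2). Over the 4 ways of setting an MG array against a non-MG array, the ratio ran from 2.24 to 2.64. In bulk RNA of this kind, fewer cells that express a miRNA and less of it per cell cannot be told apart.

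miR-27b, its neighbour in the cluster, was measured at 41.8 and 54.3 on the non-MG arrays and at 83.5 and 79.5 on the MG arrays. The groups did not overlap, and the difference was 1.71-fold, or 0.77 on the log2 scale (SE 0.19). The non-MG arrays differed from each other by 1.30-fold and the MG arrays by 1.05-fold, so most of the error came from the non-MG side. The ratio of an MG to a non-MG array ran from 1.46 to 2.00.

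miR-24, which both clusters encode, was measured at 194 and 215 on the non-MG arrays, against 263 and 252 on the MG arrays. The MG arrays were both higher, by 1.26-fold or 0.34 on the log2 scale (SE 0.080), a smaller difference than that of miR-23b or miR-27b.

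The signals of the chromosome 19 forms overlapped between the groups. miR-23a had scaled signals of 339 and 405 on the non-MG arrays, against 394 and 407 on the MG arrays. The lower MG array lay below the higher non-MG array, and the ratio of 1.08 (log2 difference 0.11, SE 0.13) was within the spread of the arrays. miR-27a was measured at 130 and 177 on the non-MG arrays, against 152 and 140 on the MG arrays. Both MG values lay between the 2 non-MG values, with a ratio of 0.960 (log2 difference -0.058, SE 0.23). With errors of this size, neither value shows that a chromosome 19 form was unchanged.

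**Figure D1:**
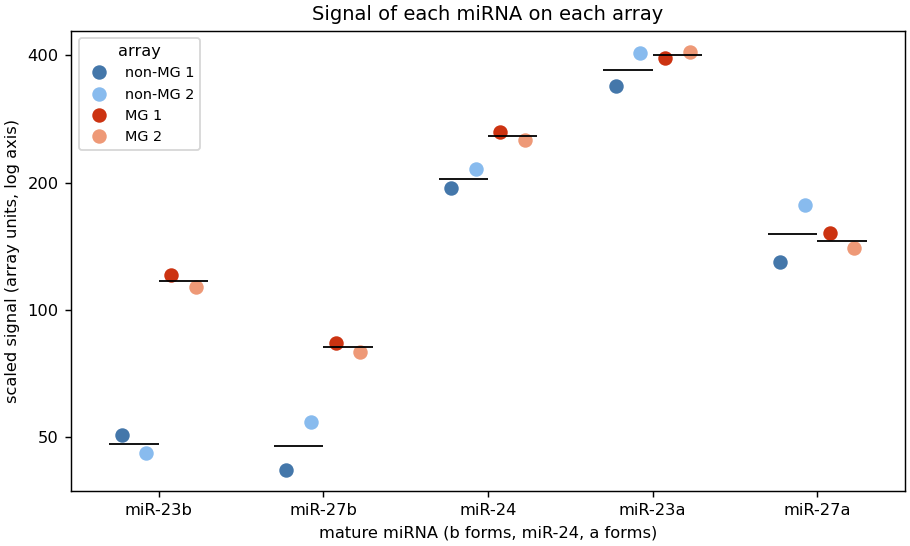
Scaled signal of the 5 miRNAs on each array, on a log axis; each point is 1 array (blue shades non-MG, red shades MG) and each bar the geometric mean of the 2 arrays of a group. The MG arrays lie above the non-MG arrays for miR-23b, miR-27b and miR-24, and the groups overlap for miR-23a and miR-27a.

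Of the 5 miRNAs, 3 had both MG arrays above both non-MG arrays, beside 12 of the 57 human miRNAs past the signal minimum (21.1%), which was detection and an unscaled signal of 50 on any array. The opposite order, both MG arrays below both non-MG arrays, was found for 23 of the 57 (40.4%) and for none of the 5. Of the 5, only miR-23b and miR-27b were at least 1.5-fold higher in MG cells, beside 3 of the 57 (5.26%), and none was at least 1.5-fold lower, beside 1 of the 57 (1.75%). miR-27b fell short of 1.5-fold with the per-miRNA total that the scanner files hold, at 1.46, and with normexp background correction, at 1.29, where miR-23b was at 1.59. This correction adds 50 to every spot, and an added constant narrows ratios. On non-MG 1 the spots of the brighter miR-27b probe had a scaled median of 57.5. The part of the offset in the normexp values was not tested. The shares of the 57 include the 5 miRNAs themselves, and nothing is read from the comparison, since the choice of the 5 used the contrast of MG and non-MG cells. The median log2 difference was 0.34 over the 5 and -0.081 over the 57. Ranked from the most raised, miR-23b was at place 1 of 57, miR-27b at 3, miR-24 at 7, miR-23a at 11 and miR-27a at 25. The summed scaled signal of the 5 epithelial markers, all detected on every array, ran from 669 to 729 on the non-MG arrays and from 630 to 650 on the MG arrays, and its part in these differences was not tested. Of 10 markers of blood, endothelium, mesenchyme, muscle, neurons and liver, 8 were detected on no array and none exceeded a scaled signal of 10.3. Their sum ran from 15.3 to 15.9 on the non-MG arrays and from 8.78 to 14.6 on the MG arrays.

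The 2 probes of a miRNA read the same molecule with different strength. For miR-23b the brighter probe had 42.6 and 35.2 on the non-MG arrays, against 101 and 92.5 on the MG arrays. The dimmer probe had 7.87 and 10.74 against 20.03 and 20.53. Both probes thus separated the groups, by 2.50-fold (log2 1.32, SE 0.15) and 2.21-fold (log2 1.14, SE 0.22). The brighter miR-27b probe had 29.7 and 38.5 on the non-MG arrays, against 63.1 and 60.4 on the MG arrays, and the dimmer one had 12.1 and 15.8 against 20.4 and 19.1. These were differences of 1.83-fold (log2 0.87, SE 0.19) and 1.43-fold (log2 0.51, SE 0.20), so the dimmer probe fell below the 1.5-fold criterion that the miRNA passed. The miR-24 probes were 1.25-fold and 1.29-fold higher, again without overlap. For the chromosome 19 forms all 4 probes overlapped between groups, with ratios of 1.09 and 1.07 for miR-23a and of 0.997 and 0.870 for miR-27a. In all, 6 of the 10 probes had both MG arrays above both non-MG arrays, beside 20 of 112 probes (17.9%). The 112 are those probes of the 57 miRNAs that stood above 3 times their error on every array.

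The arrays share a layout, so each spot position can be followed across all 4. For miR-23b both MG spots were brighter than both non-MG spots at all 16 positions, for miR-27b at 15 of 16 and for miR-24 at 13 of 16. miR-23a had 3 such positions and miR-27a had 1, and each had 2 positions with the opposite order. Over all positions of the 57 miRNAs it was 169 of 912 (18.5%). Positions of a probe read the same RNA and are not replicates of a condition. Spots of a probe varied more on the non-MG arrays. The coefficient of variation over its 8 spots had a median of 16.7% on non-MG 1 and 33.7% on non-MG 2, against 10.8% on MG 1 and 13.4% on MG 2.

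**Figure D2:**
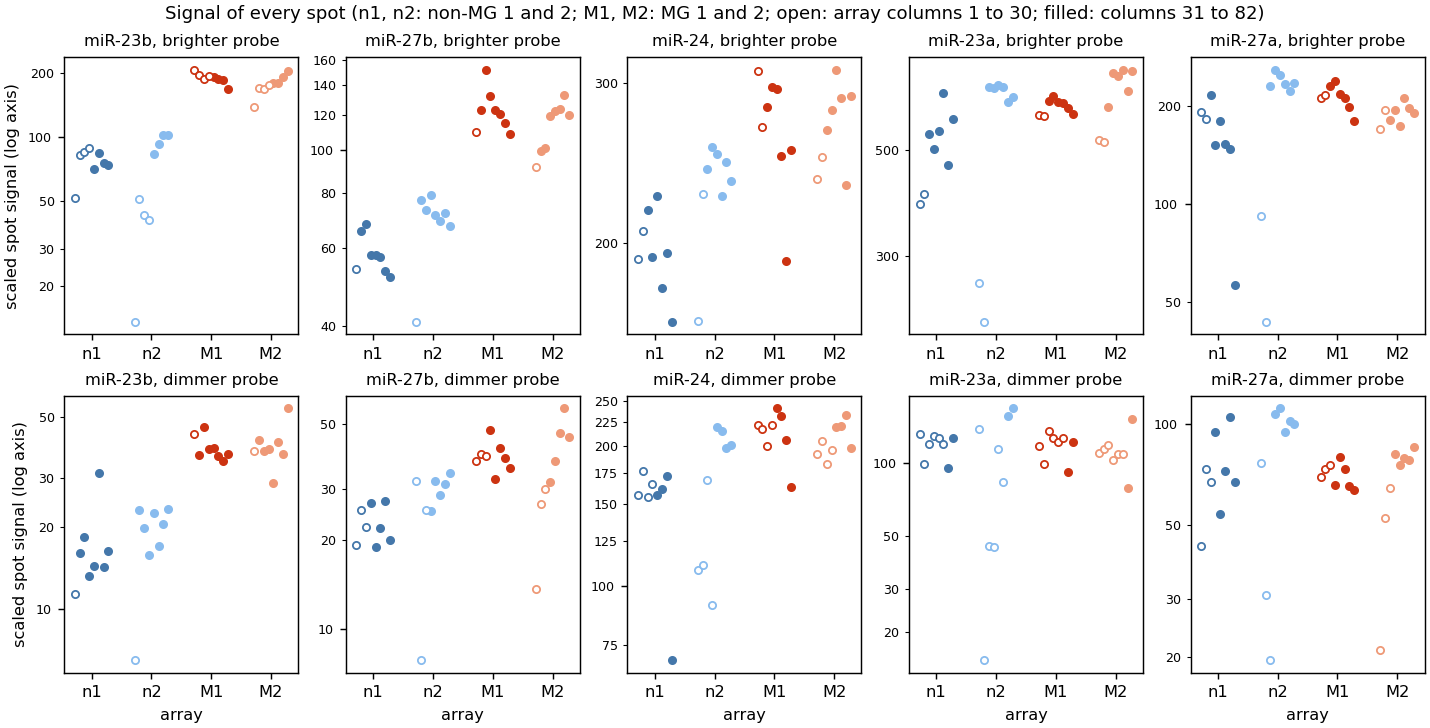
Scaled signal of every spot of the 10 probes on a log axis, 8 spots per array ordered by array column within each array, with open points for columns 1 to 30 and filled points for columns 31 to 82. Both MG spots (M1, M2) were brighter than both non-MG spots (n1, n2) at 16 of 16 positions of miR-23b and 15 of 16 of miR-27b, and the dimmest spots of non-MG 2 (n2) are open points.

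The wide spread on non-MG 2 followed the position on the array. Over 112 probes of other miRNAs with a median spot signal above 30 on every array, spots in columns 1 to 30 of the 82 had a median of 64.3% of their probe's median on non-MG 2, against 98.7% on non-MG 1, 99.0% on MG 1 and 93.6% on MG 2. The 5 miRNAs had spots there too. On non-MG 2 the 4 left spots of the brighter miR-23b probe ran from 13.7 to 51.2, and the 4 others from 83.5 to 103. The same split on MG 1 gave 187 to 207 and 168 to 192. For the brighter miR-23a probe on non-MG 2 the 2 left spots were at 218 and 264, and the other 6 ran from 633 to 684. The number of spots in the left columns was 8 of 16 for miR-23a, 6 for miR-24, 5 each for miR-23b and miR-27a and 4 for miR-27b.

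**Figure D3:**
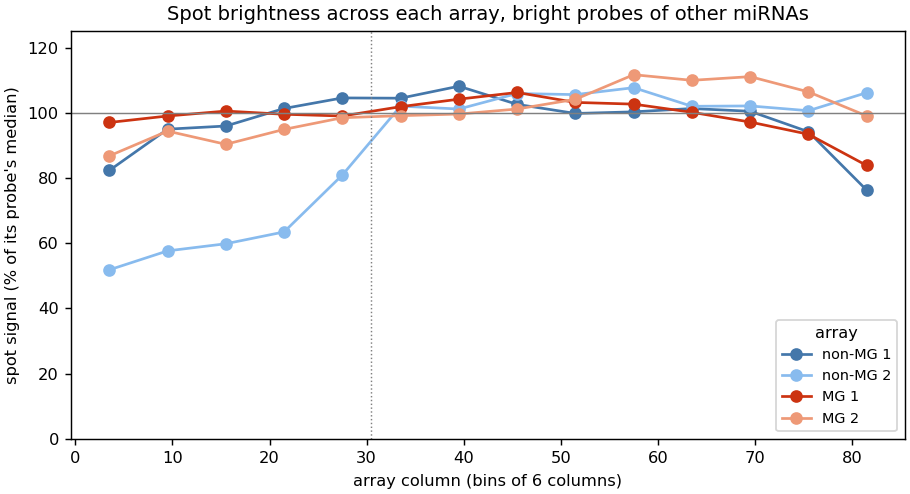
Median spot signal, as a percentage of its probe's median on the same array, in bins of 6 array columns for 112 bright probes of miRNAs other than the 5; each line is 1 array and the dotted line marks column 30. Non-MG 2 lies at 51.8% in the leftmost bin and reaches 102% in the bin that starts at column 31, while the other arrays lie between 76.2% and 112% throughout.

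The values were therefore taken again from the spots of columns 31 to 82 on every array, a choice made after seeing the data. The new values are sums of mean spot signals, in larger units than the probe signals above, so only ratios and shares compare with those. The brighter miR-23b probe on non-MG 1 had a mean of 76.7 over all its 8 spots, against 42.6 as a probe signal. miR-23b was then 2.30-fold higher in MG cells (log2 1.20, SE 0.062), and its non-MG arrays read 96.9 and 104, against 237 and 225 on the MG arrays. miR-27b was 1.92-fold higher (log2 0.94, SE 0.052), with 85.1 and 90.6 against 171 and 165, so its non-MG arrays lay closer together than with all spots. miR-24 was 1.32-fold higher. miR-23a was 1.13-fold higher (log2 0.17, SE 0.066), with 701 and 739 against 782 and 841, and its groups then no longer overlapped. miR-27a still overlapped, at a ratio of 1.07. Without array non-MG 2 altogether, all 5 miRNAs had both MG arrays above the remaining non-MG array. Over all miRNAs past the signal minimum this held for 17, against 12 with all arrays, and a single array is easier to exceed than 2. The ratios of the 5 were 1.18 for miR-23a, 1.12 for miR-27a, 2.32 for miR-23b, 1.95 for miR-27b and 1.33 for miR-24. Without non-MG 1 the ratios were 0.990, 0.823, 2.55, 1.4995 and 1.20, in the same order, which puts miR-27b just under the 1.5-fold criterion. The overlap of miR-23a between groups also depended on the scaling. Before any scaling its signals were 357 and 384 on the non-MG arrays, against 401 and 400 on the MG arrays, which did not overlap.

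Within an array, the ratio of the b form to the a form is left as it is by any scaling that multiplies a whole array by 1 factor, as here. Of the summed miR-23 signal, miR-23b made up 13.0% and 10.2% on the non-MG arrays, against 23.5% and 21.7% on the MG arrays. The mean share was 11.6% ± 1.97 (SD, n = 2) in non-MG cells and 22.6% ± 1.24 (SD, n = 2) in MG cells, 11.03 percentage points apart. Of the summed miR-27 signal, miR-27b made up 24.4% and 23.5% on the non-MG arrays, against 35.5% and 36.3% on the MG arrays. These means were 23.9% ± 0.602 and 35.9% ± 0.538 (SD, n = 2 each), 12.0 percentage points apart. The share of the b form was thus higher on both MG arrays in both pairs, and in the miR-27 pair its arrays of a group lay within 1 percentage point of each other.

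As a ratio, b over a was 2.25-fold higher in MG cells for miR-23 (log2 1.17, SE 0.21) and 1.78-fold higher for miR-27 (log2 0.83, SE 0.041). The error of the miR-27 ratio was smaller than that of either of its signals, both of which were higher on non-MG 2 than on non-MG 1. From the spots of columns 31 to 82 the ratios were 2.04-fold higher (log2 1.03, SE 0.091) and 1.79-fold higher (log2 0.84, SE 0.12). The miR-23b share then read 12.2% and 12.3% on the non-MG arrays, closer together than with all spots, and 23.3% and 21.1% on the MG arrays. The miR-27b share read 26.2% and 23.4% against 36.5% and 37.8%.

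**Figure D4:**
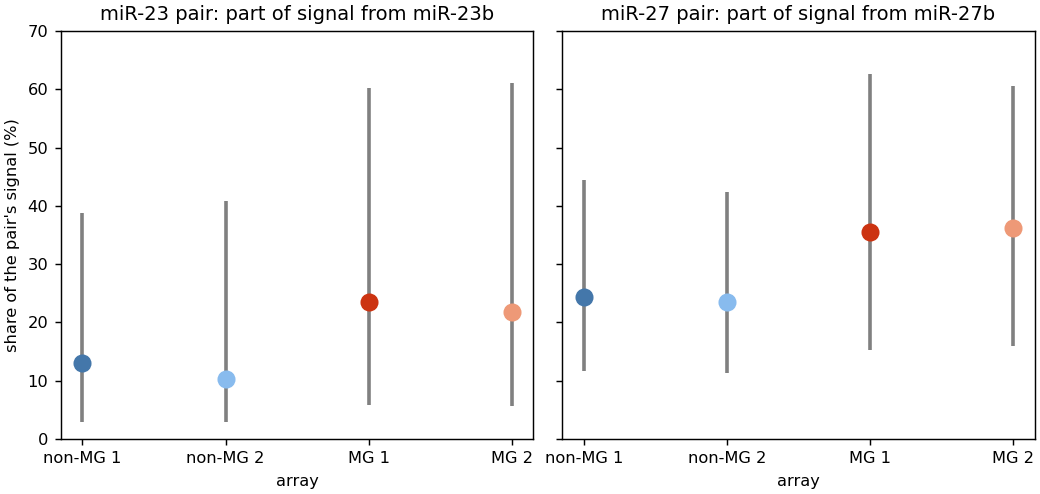
Share of each pair's summed signal that came from the b form, in percent, on each array; points use both probes of each miRNA and grey bars run from the lowest to the highest share over the 4 ways of pairing a b probe with an a probe. The points of the MG arrays lie 8.76 percentage points or more above those of the non-MG arrays in both pairs, and the bars are far longer than that difference.

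How large the share is depends on which probes are read. Pairing single probes, the miR-23b share on non-MG 1 ran from 2.82% to 38.9%, and on MG 1 from 5.77% to 60.2%. The miR-27b share ran from 11.6% to 44.4% on non-MG 1 and from 15.2% to 62.6% on MG 1. On MG 1 the brighter miR-23b probe read 1.51 times the dimmer miR-23a probe, while the dimmer miR-23b probe read 0.0612 times the brighter miR-23a probe. The shares are therefore shares of signal and not of molecules, and whether the a or the b form was more abundant cannot be read from them. The difference between groups varied less with the probes. Over the 4 probe pairings the ratio was 2.02 to 2.33 times as high in MG cells for miR-23 and 1.43 to 2.10 times for miR-27, and the groups did not overlap in any of the 8 pairings. How far a probe for one form also binds the other, which differs from it by a single base, was not measured.

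The summed signal of a pair stands for the supply of its seed as the array reads it. For the miR-23 seed it was 389 and 450 on the non-MG arrays, against 515 and 520 on the MG arrays, with no overlap and a ratio of 1.24 (log2 0.31, SE 0.11). miR-23b added 68.8 of the 97.9 units between the group means and miR-23a 29.0. For the miR-27 seed the sum was 172 and 231 on the non-MG arrays, against 235 and 219 on the MG arrays. These overlapped, at a ratio of 1.14 (log2 0.19, SE 0.22). From the spots of columns 31 to 82 the ratios were 1.27 for the miR-23 sum and 1.28 for the miR-27 sum. Neither sum then overlapped between groups. Over all alternatives, those without an array included, the ratio ran from 1.06 to 1.33 for miR-23 and from 0.975 to 1.32 for miR-27. Like the shares, the sums weigh each form by the strength of its probes.

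Between neighbours of the chromosome 9 cluster the differences were unequal. The ratio of miR-23b to miR-27b was 1.21 and 0.845 on the non-MG arrays, against 1.45 and 1.42 on the MG arrays, 1.42-fold higher without overlap (log2 0.51, SE 0.26). miR-23b over miR-24 was 0.260 and 0.214 against 0.459 and 0.448, which is 1.92-fold higher. miR-27b over miR-24 was 0.216 and 0.253 against 0.317 and 0.315, or 1.35-fold. On the chromosome 19 side, miR-23a over miR-24 was 1.75 and 1.88 on the non-MG arrays, against 1.496 and 1.613 on the MG arrays, and miR-27a over miR-24 was 0.670 and 0.823 against 0.575 and 0.553. The difference of miR-24 thus lay between those of the b and the a forms. miR-23a over miR-27a overlapped between groups, at 2.61 and 2.29 against 2.60 and 2.91.

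The opposite arms of the hairpins could have told the clusters apart for miR-24, because they differ by locus.
miR-24-1-5p, chr9:95086027-95086048, plus strand: uGCCUACUgagcugauaucagu
miR-24-2-5p, chr19:13836326-13836347, minus strand: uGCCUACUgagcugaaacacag
The 2 arms share a seed and differ at 6 bases, the first at position 16. Neither was detected on any array. miR-23a-5p, miR-23b-5p, miR-27a-5p and miR-27b-5p were not detected either. Over the 22 probes of the 6 arms the highest unscaled signal on any array was 0.913. The highest ratio of a signal to its error was 1.21. The lowest unscaled signal of a probe for the 5 mature miRNAs was 8.31. How much of the miR-24 difference came from each cluster could not be measured.

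Other human paralogs that differ by a letter give a background for the ratios. Past the signal minimum there were 39 such pairs, of which 28 were within let-7 and 6 within miR-320, so the pairs share members. The groups did not overlap in 31 of the 39 pairs (79.5%), so the separation of the miR-23 and miR-27 ratios is near what most pairs showed. Their sizes ranked 1 and 2 of the 39. Among the 37 other pairs the absolute log2 change had a median of 0.21. The highest change was 0.69 (SE 0.075), for let-7i over let-7c, and the lowest was -0.46 (SE 0.22), for miR-20b over miR-20a.

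**Figure D5:**
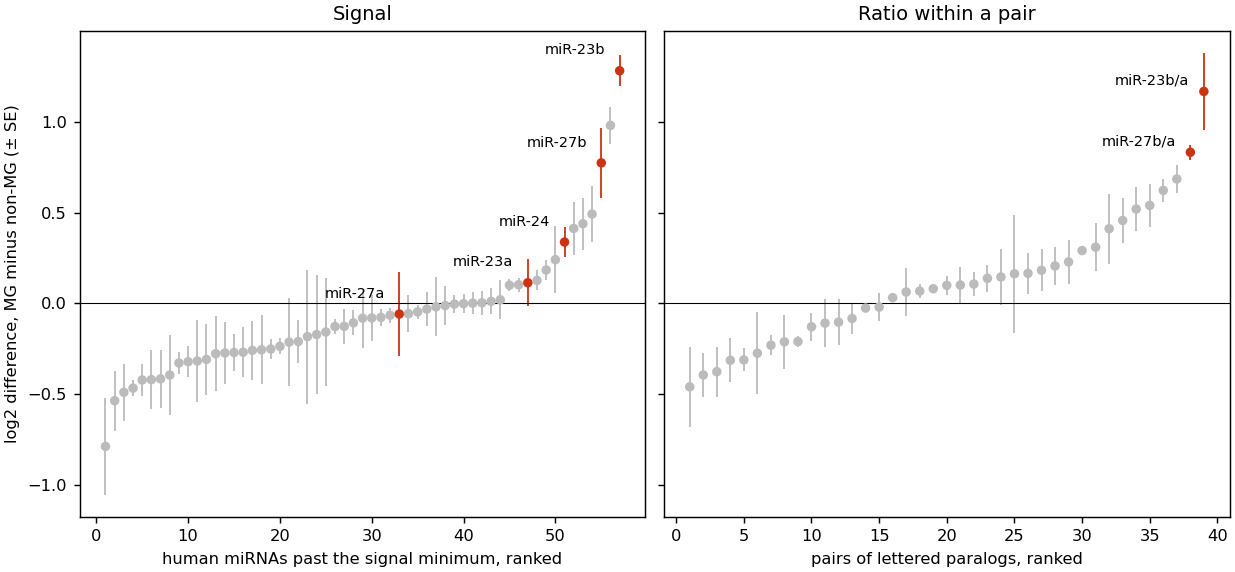
Log2 difference between MG and non-MG arrays with its SE (n = 2 and 2) for the 57 human miRNAs past the signal minimum (left) and for the ratio within 39 pairs of lettered paralogs (right), ranked; red marks the 5 miRNAs and their 2 pairs. miR-23b lies highest on the left at 1.28, and the miR-23 and miR-27 pairs are the highest on the right at 1.17 and 0.83.

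The miRNA whose pattern over the 4 arrays was most like that of miR-23b was miR-10a-5p, a miRNA of the HOXB locus, with a mean absolute difference of 0.16 between the centred log2 signals (median over the 56 other miRNAs 0.69). Its scaled signals were 33.3 and 38.1 on the non-MG arrays, against 68.5 and 72.1 on the MG arrays. By RT-qPCR the study found miR-24, miR-27b and miR-23b each significantly raised in the migrating subpopulation. For miR-10a it reported too little to detect in either subpopulation. miR-27b came next, at 0.26, and miR-1274b, an entry since withdrawn from miRBase, followed at 0.39. For miR-27b the most alike were again miR-10a-5p, at 0.10, then miR-1274b at 0.17 and let-7i-5p at 0.18, against a median of 0.43. Neither a-form paralog was among these. The named neighbours also had some of the largest differences between the groups, at log2 0.98 for miR-10a-5p, 0.49 for miR-1274b and 0.41 for let-7i-5p. The members were chosen with that difference known, and it was smaller for the a forms. Nothing is therefore read from the likeness.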

How the data were processed

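The authors deposited the Feature Extraction 10.7.1.1 output of each array, with background-subtracted Cy3 intensity per spot and probe and no normalization between arrays, and a table of 1 intensity per miRNA, which served as an alternative. The labels describe a gene-expression labelling protocol. The study's methods name GeneSpring and state neither a normalization nor a test for the arrays, and no probe sequences were used here. Control spots were left out. Probe signals above 3 times their error were summed per miRNA, brought to a common 75th percentile over the 116 miRNAs that every array detected, floored at 1 and put on the log2 scale. Of 851 human miRNAs, the 57 detected on any array and reaching an unscaled signal of 50 on any array were kept. A fold is a ratio of geometric means, and an SE is that of the difference of log2 means. Calculations used Python 3.11.15 and pandas 2.3.3, and the normexp alternative limma 3.58.1 in R 4.3.3. The calculation of changes was tested on simulated data. The members and lists were chosen with earlier results of these data known. The miRNAs named are the 5 members, the other arms of their precursors, the 3 miRNAs most like miR-23b and miR-27b, marker lists and the lettered pairs with the highest and lowest change of ratio. Likeness is the mean absolute difference of log2 signals centred on each miRNA's mean. Precision is limited by the number of arrays.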

Additional observations from a re-analysis of the deposited data

How the results depend on the processing

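Over the 11 alternatives with all arrays, miR-23b and miR-27b kept both MG arrays above both non-MG arrays in each, miR-24 in 10 (not with the per-miRNA total that the scanner files hold), miR-23a in 5 (no scaling, median scaling, normexp and both choices of columns) and miR-27a in 0. For the 5 members, 3 of the 11 (spot means, all probes and the deposited table) gave the ratios between arrays as reported. The b over a ratios kept both MG arrays above in 9 of 9 alternatives. Of the 9, those 3 and the per-miRNA total only repeat the reported ratios. No scaling and median scaling would too and are not among the 9. Quantile normalization is, but was added later. With it the log2 ratio differed between groups by 1.27 for miR-23 and 0.79 for miR-27, against 1.17 and 0.83 as reported. With the per-miRNA total that the scanner files hold the ratios of MG to non-MG were 0.926 for miR-23a, 2.08 for miR-23b, 1.46 for miR-27b, 1.08 for miR-24, 1.06 for the summed miR-23 pair and 0.975 for the summed miR-27 pair, with 4 miRNAs above on both MG arrays and 6 at least 1.5-fold lower. With normexp background correction (offset 50) they were 1.59 for miR-23b and 1.29 for miR-27b. The shares then differed between groups by 6.75 percentage points for miR-23 and 6.42 for miR-27, and the log2 ratios by 0.53 and 0.40. With this correction 1 miRNA was at least 1.5-fold higher and 0 lower. The brightest probe alone gave 2.66 for miR-23b, 12.6 percentage points for miR-27 and 12 miRNAs with both MG arrays below, and quantile normalization gave 1.35 for miR-24. Spots of columns 31 to 72, chosen after seeing the data, gave 13.7 percentage points and a difference of the log2 ratio between groups of 0.96 for miR-27. With these spots, and with those of columns 31 to 82, 2 miRNAs were at least 1.5-fold lower, against 1 as reported. A signal minimum of 20 left 91 miRNAs, of which 3 were lower and 37 had both MG arrays below (40.7%, against 40.4% of the 57), and one of 100 left 44, of which 1 was higher and 0 lower. Leaving out an array gave 0 to 3 miRNAs at least 1.5-fold lower and 3 to 5 of the 5 members above, with 5 when non-MG 2 was left out. Over all miRNAs past the signal minimum, 14 to 18 were above, with 17 when non-MG 2 was left out. The ratios were 2.32 to 2.55 for miR-23b and 1.4995 to 1.95 for miR-27b. The causes of these moves were not tested. The arrays share replicate numbers, and deviations of same-numbered arrays from their group means correlated at 0.48 over the 57 miRNAs, but with 2 pairs the numbers are not known to pair samples. With the number as a replicate block the differences are the same by construction. The SE became 0.019 (from 0.084) for miR-23b, 0.22 (from 0.19) for miR-27b, 0.12 (from 0.21) for the miR-23 ratio and 0.058 (from 0.041) for the miR-27 ratio, and the within-number ratios were 2.40 and 2.46 for miR-23b and 2.00 and 1.46 for miR-27b.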
